A study of Mus musculus with 20 samples.

Results

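The 41 sarcomere and Z-disc genes described here encode the proteins from which heart muscle builds its contractile unit, together with the factors that assemble and turn over that unit. The members were chosen by name, as cardiac contractile proteins and their assembly factors, and were 41 of the 48795 genes for which the authors deposited a value in each heart. All 41 were found, and all 41 met the condition for testing, a normalized count that averaged 10 or more. The values came from mRNA sequencing of 20 whole hearts dissected from mouse embryos at E13.5, each heart being 1 library. There were 10 WT hearts, 5 Dp1Tyb hearts and 5 hearts labelled Dp1TybDyrk1a+/+/-. Dp1Tyb embryos bear a duplication of the segment of mouse chromosome 16 that runs from Lipi to Zbtb21, in every cell of the body. Dp1TybDyrk1a+/+/- embryos bear the same duplication and, in addition, the Dyrk1a tm1Mla null allele, so that the number of functional copies of the kinase gene Dyrk1a returns to normal while the rest of the segment stays duplicated. The series text states that 5 WT hearts were littermates of each mutant genotype, but the labels do not say which, so all 10 WT hearts served in each comparison with WT. Each comparison therefore reuses the same WT or mutant hearts, and the values of the 3 comparisons are not independent of each other. P-values measure the spread between these hearts, whose litters the labels do not give. No member lies on chromosome 16, and so no member is part of the duplicated segment.

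In a sarcomere, thick filaments of myosin slide along thin filaments of actin. Calcium binds troponin C on the thin filament, which moves tropomyosin aside and lets the myosin heads attach. The thin filaments are anchored in the Z-disc, a lattice of alpha-actinin and its partners at either end of the sarcomere, and the giant protein titin spans from the Z-disc to the M-band at its centre. Embryonic heart muscle co-expresses isoforms that later separate by chamber or by age, and several of these genes are mutated in human cardiomyopathies. The members were grouped by role as 11 thick filament and M-band genes, 11 thin filament genes, 11 structural Z-disc genes, 4 genes of Z-disc and titin signalling and 4 assembly and turnover genes. Because whole hearts were sequenced, a lower value of a muscle gene can come from fewer muscle cells or from less RNA per muscle cell, and these cannot be told apart.

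The hearts were checked before the members were compared. Cardiomyocyte markers outside the members were abundant in all 20 hearts, with a summed normalized count between 98500 and 122000. Markers of skeletal muscle, liver and lung were low: the summed normalized count of the 12 skeletal markers, some of which embryonic heart muscle also uses, was between 1700 and 2460, and Myf5, Myf6 and Pax7 were under 1 normalized count. Dyrk1a had log2 values of 11.28 to 11.43 in WT, 11.65 to 11.75 in Dp1Tyb and 11.70 to 11.85 in the hearts labelled Dp1TybDyrk1a+/+/-, so both duplicated genotypes lay above WT. The null allele did not show in the value of the whole gene, which was 0.07 ± 0.03 (SE) lower in Dp1Tyb hearts than in those labelled Dp1TybDyrk1a+/+/- (limma, adjusted P=0.209). That value does not separate transcripts of the null allele from the others, so Dp1TybDyrk1a+/+/- is taken from the label alone. Heart 2 labelled Dp1TybDyrk1a+/+/- stood apart from all others, with 12.2% of the 15304 genes tested lying more than 0.3 on the log2 scale from the median of the other hearts. In WT heart 6, the next in order, that share was 3.06%, and in the remaining 18 hearts it was between 0.34% and 1.54%. Counts by role group and the values of several members, Ttn and Tnni1 among them, are given with and without heart 2.

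The promoters of 4 members are shown. In 7 members Dp1Tyb hearts and those labelled Dp1TybDyrk1a+/+/- did not overlap, and Tnnt2, Tnnc1 and Tnni3 were the troponin genes among them. Acta1 was the highest member in Dp1Tyb relative to WT. Each line gives the 250 bases before the RefSeq start on the GRCm38.p6 build, 5′ to 3′ on the strand of the gene, with capitals for every match to the motifs named below. Tnnt2 lies at chr1:135836084-135836333, plus strand, Tnnc1 at chr14:31208062-31208311, plus strand, Tnni3 at chr7:4522529-4522778, minus strand, and Acta1 at chr8:123894776-123895025, minus strand.
Tnnt2: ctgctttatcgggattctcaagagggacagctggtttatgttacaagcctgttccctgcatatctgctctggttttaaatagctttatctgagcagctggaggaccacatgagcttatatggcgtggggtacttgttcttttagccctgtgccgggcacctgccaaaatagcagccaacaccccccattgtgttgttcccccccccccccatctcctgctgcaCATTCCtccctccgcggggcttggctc
Tnnc1: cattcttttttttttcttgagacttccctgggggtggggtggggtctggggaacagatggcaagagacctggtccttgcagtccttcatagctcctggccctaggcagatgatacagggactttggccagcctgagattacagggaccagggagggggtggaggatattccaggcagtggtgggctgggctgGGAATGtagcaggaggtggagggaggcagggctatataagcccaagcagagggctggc
Tnni3: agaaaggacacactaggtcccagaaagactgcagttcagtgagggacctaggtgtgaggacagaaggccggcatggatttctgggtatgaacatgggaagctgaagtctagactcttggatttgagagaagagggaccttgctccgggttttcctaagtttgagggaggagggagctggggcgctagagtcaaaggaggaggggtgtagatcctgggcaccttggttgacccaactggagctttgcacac
Acta1: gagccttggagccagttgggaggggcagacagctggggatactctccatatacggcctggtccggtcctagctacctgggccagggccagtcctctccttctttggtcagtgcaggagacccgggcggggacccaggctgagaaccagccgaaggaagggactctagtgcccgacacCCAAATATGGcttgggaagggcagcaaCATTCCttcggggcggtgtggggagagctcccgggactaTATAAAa

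Both strands were searched for TATAAA, for CATTCC (the M-CAT element bound by TEAD factors), for the CArG box bound by serum response factor and for the MEF2 site, each of which is known from muscle promoters. In Tnnt2 CATTCC lay 27 to 22 bases before the start, and in Tnnc1 it lay 58 to 53 bases before the start on the opposite strand. The Acta1 window held a CArG box 73 to 64 bases before the start, CATTCC at 46 to 41 and TATAAA at 7 to 2. The Tnni3 window held none of these letters, which says nothing about the factors themselves. RefSeq listed a promoter for 36 of the 41 members, and in 30 of these the listed start matched the canonical transcript. Among these 30, CATTCC was found in 12 (40.0%), against 12.6% of all 32851 listed promoters. The CArG box was found in 7 of the 30 (23.3%) against 1.47% of all promoters, the MEF2 site in 5 (16.7%) against 2.92%, and TATAAA in 5 (16.7%) against 12.4%. The CArG genes were Myl3, Myl7, Myom1, Actc1, Acta1, Ldb3 and Fhl2. These are matches of letters and not measured binding.

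In WT hearts the 41 members together took between 3.79% and 4.69% of the summed normalized counts of all genes. The share was between 3.92% and 4.27% in Dp1Tyb hearts and between 3.91% and 4.36% in hearts labelled Dp1TybDyrk1a+/+/-, so the 3 genotypes overlapped. Per kb of transcript, the highest member in WT was Myl2, the regulatory light chain of ventricular myosin, at a mean normalized count of 65700 per kb. It was followed by the cardiac actin gene Actc1 at 33400 per kb and by Tnnt2 at 30000 per kb. The atrial regulatory light chain Myl7 stood at 23800 per kb, the embryonic and atrial essential light chain Myl4 at 23100 and the slow myosin heavy chain Myh7 at 22600. The lowest were Ttn (288 per kb), the M-band gene Myom2 (46.7) and Xirp2 (6.49), which encodes a repeat protein that binds actin. The value of Ttn is for a transcript of 107543 bases, the longest by far, so that its count per library was as large as that of Mybpc3, at 30900 against 31000.

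**Figure D1:**
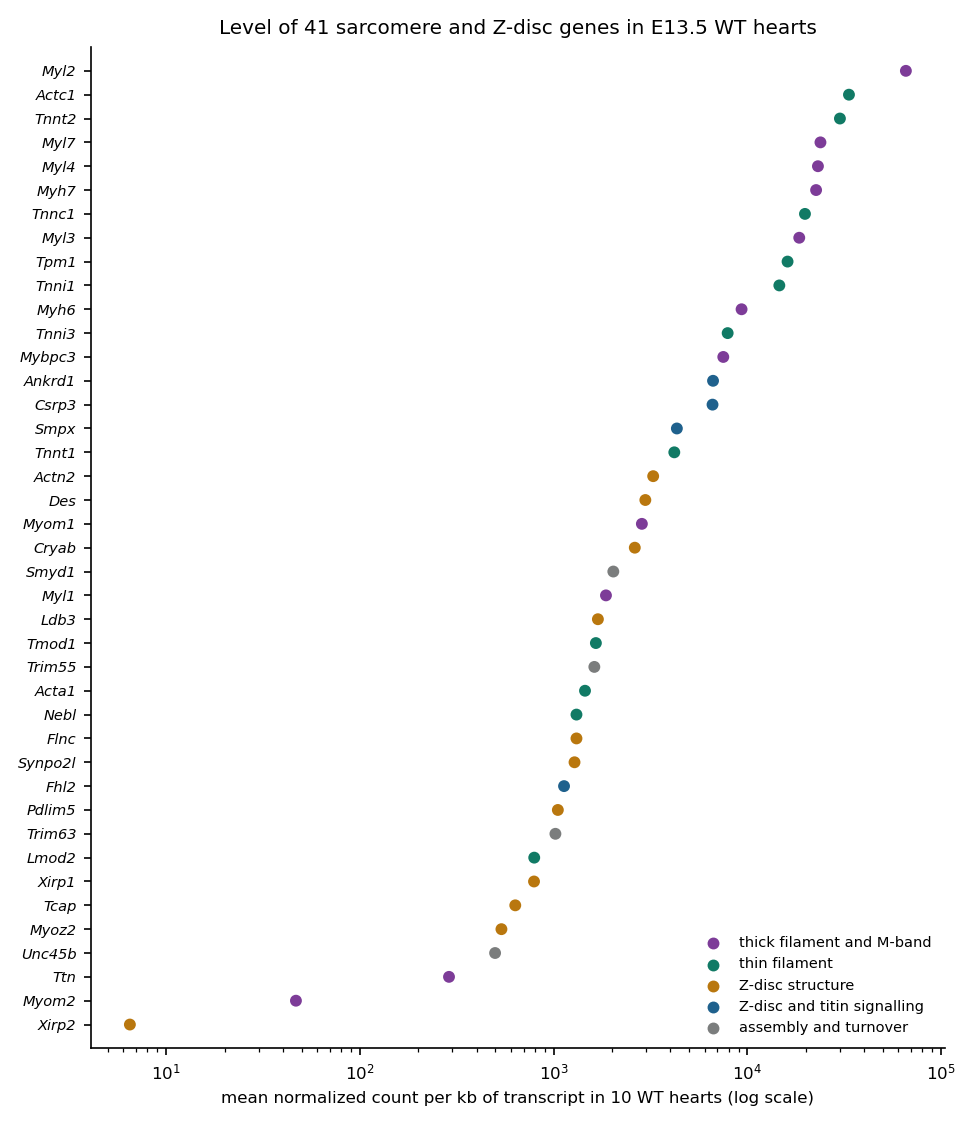
Mean normalized count per kb of canonical transcript in the 10 WT hearts (log axis) for each of the 41 members, coloured by role. Myl2 lies highest at 65700 per kb and Xirp2 lowest at 6.49 per kb.

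Replicate hearts differed more in these genes than in the typical gene. The SD of the log2 value within a genotype had a median of 0.101 over the members and of 0.0592 over all 15304 genes tested, and all 41 members lay above the latter value. The SD depended on the level, with a median of 0.0146 where the normalized count averaged 1 to 10 and of 0.0626 where it averaged 1000 or more, so the comparison is a description. Between members the SD ran from 0.0714 to 0.486. Ttn had the largest, followed at a distance by the essential light chain Myl1 (0.20) and the stress-responsive Z-disc gene Ankrd1 (0.19). Much of the variation was shared by whole hearts: in WT heart 9 all 41 members were below the mean of the WT hearts, and in WT heart 10 40 of 41 were above it. The median difference of the members from the WT mean was -0.16 in WT heart 9 and 0.13 in WT heart 10. Cell type markers moved beside this, with the 12 cardiomyocyte markers at a mean of -0.16 and the 8 fibroblast markers at 0.10 in WT heart 9, and at 0.13 and -0.31 in WT heart 10, relative to all hearts. Among the other lists, smooth muscle markers were at 0.15 and -0.24 and erythroid markers at -0.34 and 0.14 in WT hearts 9 and 10. The part of cell types in these values was not tested.

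**Figure D2:**
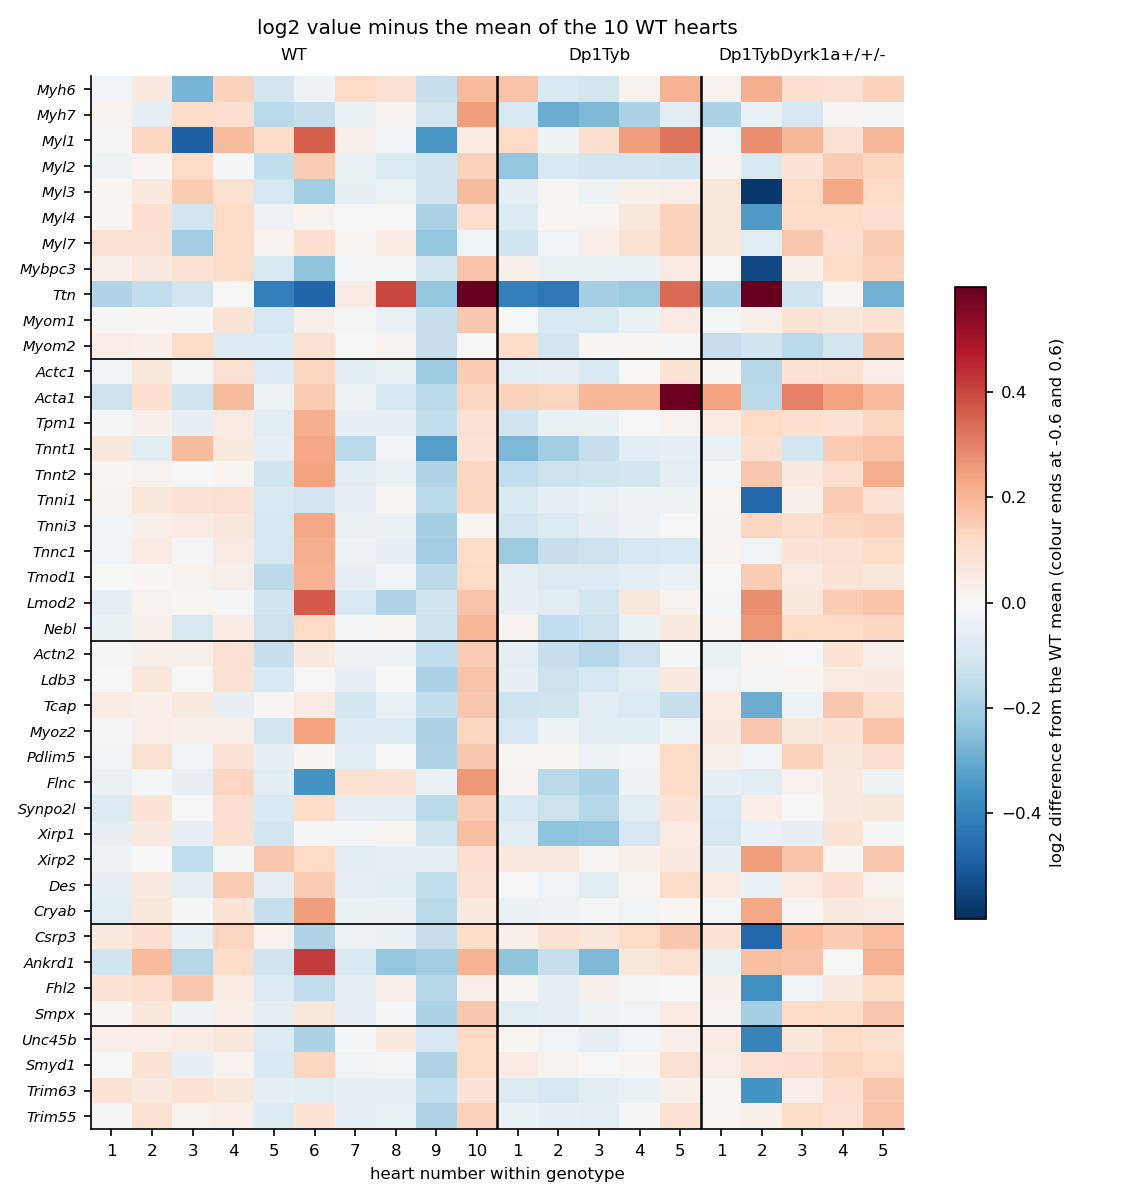
Deposited log2 value of each member (rows, by role) in each of the 20 hearts (columns, by genotype), minus the mean of the 10 WT hearts. Colours end at -0.6 and 0.6. WT heart 9 is low in all 41 rows, WT heart 10 is high in 40, and heart 2 of Dp1TybDyrk1a+/+/- combines a high Ttn value with low values of Myl3, Mybpc3, Csrp3 and Tnni1.

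The first comparison asked how the contractile genes stood in hearts with the duplication. No member passed an adjusted P of 0.05 in Dp1Tyb against WT hearts, by the limma test over all genes. Over all 15304 genes tested, 1.81% were called higher and 1.27% lower in Dp1Tyb. At an unadjusted P under 0.05, 1 member was higher (Acta1) and 6 were lower (Myh7, Myl2, Tnnt1, Tnnc1, Actn2 and Xirp1), against 7.77% of all genes higher and 7.80% lower. In no member were all 5 Dp1Tyb hearts outside the range of the 10 WT hearts, a separation that 1.51% of all genes showed upwards and 1.12% downwards. Of the 41 members 29 had a log2 fold change below 0, with a median of -0.03, where the median of all genes tested was -0.002. After quantile normalization 24 of the 41 were below 0. With the hearts weighted by quality 3 of 41 members passed, Acta1, Myh7 and Tnnc1, beside 9.29% of all genes under that setting. Cell type markers also differed between these genotypes without a call: the 12 cardiomyocyte markers had a median of -0.06, with 3 lower at an unadjusted P under 0.05, and the 8 fibroblast and mesenchyme markers a median of 0.10, with 3 higher. Among the other marker lists the medians ran from -0.04 (ventricular cardiomyocyte) to 0.07 (erythroid). The part of cell types in the members' values was not tested.

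Among the thick filament genes, Myh7, the slow or beta myosin heavy chain that predominates in the embryonic ventricle, had the smallest adjusted P. Its log2 value was 16.92 at the lowest, 17.06 at the median and 17.32 at the highest of the 10 WT hearts. In Dp1Tyb hearts 1 to 5 it was 16.99, 16.78, 16.80, 16.88 and 17.01. Dp1Tyb hearts 2, 3 and 4 lay below every WT heart and the other 2 among them. The log2 fold change was -0.18 ± 0.07 (SE), or 0.88-fold, with a 95% interval from -0.32 to -0.05 (adjusted P=0.152). Myh7 read lower in Dp1Tyb in each of the 3 sequencing lanes, by a log2 difference of -0.16, -0.19 and -0.22 in lanes 3, 6 and 7. After quantile normalization the fold change was -0.03 (adjusted P=0.915). That step gives every heart the same values rank by rank and can remove differences in the most abundant genes. Myh7 had the highest count of the members. The fold change of Myl2 was -0.13 ± 0.05 (SE; adjusted P=0.212), with Dp1Tyb heart 1 at 15.49 below all other hearts of the series and hearts 2 to 5 between 15.61 and 15.63. The other 9 thick filament and M-band genes lay between -0.18 (Ttn) and 0.15 (Myl1), and the median of the 11 was 0.00.

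The thin filament genes leaned lower in Dp1Tyb, with 10 of 11 below 0 and a median of -0.05, and Acta1 was the exception. Acta1 encodes skeletal alpha-actin, an isoform that the embryonic heart also makes. In WT hearts its log2 value was 11.06 at the lowest, 11.19 at the median and 11.40 at the highest. In Dp1Tyb hearts 1 to 5 it was 11.36, 11.35, 11.42, 11.42 and 11.81. Dp1Tyb heart 5 stood far above the rest, hearts 3 and 4 lay just above the highest WT heart, and hearts 1 and 2 lay within the WT range. The log2 fold change was 0.25 ± 0.08 (SE), or 1.19-fold, with a 95% interval from 0.09 to 0.42 (adjusted P=0.10). Within lanes 3, 6 and 7 it was 0.34, 0.23 and 0.12, and without Dp1Tyb heart 5 it was 0.17 (adjusted P=0.29). Without WT heart 6 and Dp1TybDyrk1a+/+/- heart 2 the adjusted P was 0.0174 and with the hearts weighted by quality it was 0.00722.

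Troponin C (Tnnc1), the calcium sensor of the thin filament, had a log2 value of 13.58 at the lowest, 13.79 at the median and 14.01 at the highest in WT. In Dp1Tyb hearts 1 to 5 it was 13.58, 13.65, 13.67, 13.70 and 13.71. All 5 Dp1Tyb hearts lay below the WT median, and heart 1 lay just below WT heart 9 (13.58), the lowest of its group. The fold change was -0.14 ± 0.05 (SE; adjusted P=0.153), and without WT heart 9 it was -0.16 with an adjusted P of 0.0451. Tnnt1, the slow skeletal troponin T that embryonic heart also expresses, was at -0.15 ± 0.07 (adjusted P=0.316) and Tnnt2, the cardiac troponin T, at -0.12 ± 0.06 (adjusted P=0.322). The inhibitory troponins Tnni1 and Tnni3 were each at -0.05 (SE 0.07 and 0.05).

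Of the 11 structural Z-disc genes 8 were below 0, with a median of -0.06. Actn2, the alpha-actinin that crosslinks actin in the Z-disc, was at -0.10 ± 0.04 (SE; adjusted P=0.26) and the actin-binding repeat gene Xirp1 at -0.12 ± 0.05 (adjusted P=0.24). The intermediate filament gene Des, whose product ties neighbouring Z-discs together, was at 0.01 ± 0.05. The genes of Z-disc and titin signalling (Csrp3, Ankrd1, Fhl2 and Smpx) had a median of -0.02, and the chaperone Unc45b, the methyltransferase Smyd1 and the ubiquitin ligases Trim63 and Trim55 had a median of -0.01, with adjusted P of 0.64 or more.

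The second comparison asked how the same genes stood in hearts labelled Dp1TybDyrk1a+/+/-. By that label the duplication was kept and the number of functional Dyrk1a copies was normal. Again no member passed the adjusted threshold (limma), against 0.627% of all genes called higher and 0.0849% called lower. At an unadjusted P under 0.05, 6 members were higher and none lower, against 5.02% and 4.61% of all genes. No member separated the 5 hearts from the 10 WT hearts, as 0.562% of genes did upwards and 0.0784% downwards. Of the 41 members 30 were above 0, and the median was 0.05, where that of all genes was -0.003. After quantile normalization 25 of the 41 were above 0. With the hearts weighted by quality 1 of 41 members passed, Acta1 at 0.27 (adjusted P=0.0258), beside 2.23% of all genes under that setting. The cardiomyocyte markers had a median of 0.02 and the fibroblast markers one of -0.03. The other lists ran from -0.12 (lung) to 0.07 (endothelial and endocardial).

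The 6 higher members were Tpm1, Tnni3 and Nebl of the thin filament, Myoz2 and Xirp2 of the Z-disc and Smyd1. Nebl, a nebulin relative that links thin filaments to the Z-disc, had the largest difference among them, 0.13 ± 0.05 (SE), and the smallest adjusted P of all members, 0.418. Smyd1, a methyltransferase needed to assemble myosin into thick filaments, was the leading gene of the assembly group. Its log2 value in WT was 12.52 at the lowest, 12.70 at the median and 12.83 at the highest, and in the hearts labelled Dp1TybDyrk1a+/+/- it was 12.74, 12.79, 12.81, 12.84 and 12.82 for hearts 1 to 5. Heart 4 was the only one above the WT range and all 5 were above the WT median. The fold change was 0.10 ± 0.04 (adjusted P=0.447). Thin filament genes had a median of 0.10 with 10 of 11 above 0, Z-disc genes a median of 0.02 with 8 of 11 above 0, and thick filament genes a median of 0.05 with 7 of 11 above 0. Without heart 2 labelled Dp1TybDyrk1a+/+/- these medians were 0.09, 0.03 and 0.09, with 11, 9 and 8 of 11 above 0. Myh7 was at -0.07 ± 0.07 and Acta1 at 0.16 ± 0.08, neither past the threshold (adjusted P=0.763 and 0.531). Without heart 2 the latter was at 0.24 (adjusted P=0.146).

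The third comparison set Dp1Tyb hearts against those labelled Dp1TybDyrk1a+/+/-, which share the duplication and differ by label in the number of functional Dyrk1a copies. No member passed the adjusted threshold (limma). Of all genes tested, 0.425% were called higher and 0.738% lower. The troponin genes Tnnt1, Tnnt2, Tnni3 and Tnnc1 and the regulatory light chain Myl2 stood at 0.86-fold to 0.90-fold in Dp1Tyb. Other members stood as low: Lmod2 at 0.90-fold, Myoz2 at 0.89-fold, Nebl at 0.88-fold, Ankrd1 at 0.87-fold and Ttn at 0.80-fold. The troponin gene Tnni1 was at -0.01 ± 0.08 on the log2 scale with all hearts. Without heart 2 labelled Dp1TybDyrk1a+/+/- it was at -0.11 (adjusted P=0.248). At an unadjusted P under 0.05, 10 of 41 members were lower and none higher, against 10% of all genes lower and 8.54% higher. In 7 members (Myl2, Tpm1, Tnnt2, Tnni3, Tnnc1, Tmod1 and Myoz2) every Dp1Tyb heart lay below every heart labelled Dp1TybDyrk1a+/+/-. Such a separation was shown downwards by 3.55% of all genes and upwards by 2.10%. The 7 members were measured in the same hearts and are not independent of each other. Because the groups did not overlap in these 7, they had to be lower in Dp1Tyb within each of the 3 lanes too. Of the 41 members 32 were below 0, and the median was -0.07, against 0.003 over all genes tested. After quantile normalization 26 of the 41 were below 0.

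Tnnt2, which encodes the troponin subunit that ties the complex to tropomyosin, had the smallest adjusted P of any member in any comparison. In Dp1Tyb hearts 1 to 5 its log2 value was 15.55, 15.57, 15.57, 15.59 and 15.63. In hearts 1 to 5 labelled Dp1TybDyrk1a+/+/- it was 15.69, 15.86, 15.76, 15.79 and 15.92. The groups did not overlap, with a gap between 15.63 and 15.69, and the WT hearts, with a median of 15.70, covered both, from 15.52 to 15.94. The log2 fold change was -0.22 ± 0.06 (SE), or 0.86-fold, with a 95% interval from -0.36 to -0.09 (adjusted P=0.084). Within lanes 3, 6 and 7 the difference was -0.09, -0.34 and -0.25, from 1 to 3 hearts of each genotype per lane. The sign within a lane follows from the lack of overlap. After quantile normalization the log2 fold change was -0.13 (adjusted P=0.395).

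Tnnc1 was at 13.58, 13.65, 13.67, 13.70 and 13.71 in Dp1Tyb hearts and at 13.81, 13.78, 13.88, 13.88 and 13.91 in hearts labelled Dp1TybDyrk1a+/+/-. The groups were separate, and the WT hearts, from 13.58 to 14.01, covered both except Dp1Tyb heart 1, which lay just below WT heart 9. The fold change was -0.19 ± 0.06 (SE), or 0.88-fold (adjusted P=0.0901). Tnni3, the cardiac inhibitory troponin that gains over Tnni1 as the heart matures, was between 12.71 and 12.81 in Dp1Tyb hearts and between 12.84 and 12.96 in hearts labelled Dp1TybDyrk1a+/+/-, a difference of -0.15 ± 0.05 (adjusted P=0.131). The WT hearts ran from 12.62 to 13.05. For Myl2 the values were 15.49, 15.63, 15.62, 15.61 and 15.61 in Dp1Tyb and 15.75, 15.63, 15.81, 15.88 and 15.86 in the hearts labelled Dp1TybDyrk1a+/+/-. Heart 2 of the latter lay only just above Dp1Tyb heart 2, both reading 15.63 to 2 decimals, and the WT hearts ran from 15.58 to 15.88 with a median of 15.71. The fold change of Myl2 was -0.19 ± 0.06, or 0.88-fold (adjusted P=0.112).

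Myoz2, a Z-disc protein that tethers the phosphatase calcineurin, led the Z-disc group. Its log2 value was 10.74, 10.81, 10.77, 10.77 and 10.81 in Dp1Tyb hearts and 10.90 in hearts 1 and 3 labelled Dp1TybDyrk1a+/+/-, 10.92 in heart 4, 11.01 in heart 5 and just below the latter in heart 2. The groups did not overlap, the WT hearts ran from 10.65 to 11.08, and the fold change was -0.16 ± 0.06 (adjusted P=0.135). The thin filament cap Tmod1 and the tropomyosin gene Tpm1, each at -0.14 ± 0.05, were also separate (adjusted P=0.175 and 0.181). Nebl at -0.18 ± 0.06, Tnnt1 at -0.20 ± 0.08 and Actn2 at -0.12 ± 0.05 were lower at the unadjusted level with overlapping hearts. All 11 structural Z-disc genes and 10 of 11 thin filament genes were below 0, with medians of -0.09 and -0.15, against 6 of 11 thick filament genes with a median of -0.06. Without heart 2 labelled Dp1TybDyrk1a+/+/-, 9 of 11 thick filament genes were below 0 with a median of -0.08, and the difference between role groups rests on that heart in part: Myl3, Myl4 and Mybpc3 went from 0.01, 0.02 and 0.04 to -0.14, -0.07 and -0.08. The 4 signalling and the 4 assembly genes, of which 2 and 3 were below 0 with all hearts, were then all below 0. Ankrd1, which responds to stretch, had the smallest P of the signalling genes. It read 13.46, 13.57, 13.44, 13.77 and 13.79 in Dp1Tyb hearts and 13.66, 13.88, 13.87, 13.70 and 13.91 in hearts labelled Dp1TybDyrk1a+/+/-, with WT hearts from 13.47 to 14.12. These groups overlapped, and the fold change was -0.20 ± 0.11 (adjusted P=0.329).

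The hearts that stood apart bear on this comparison. Without WT heart 6 and heart 2 labelled Dp1TybDyrk1a+/+/-, an alternative added after the data were seen, 3 of the 41 members passed the threshold in Dp1Tyb against Dp1TybDyrk1a+/+/-, all lower in Dp1Tyb, beside 3.96% of all genes in either direction. These were Tnnc1 at -0.21 (adjusted P=0.0194), Myl2 at -0.23 (0.0215) and Tnnt2 at -0.21 (0.0332). When limma weighted the hearts by their quality, which gave heart 2 a weight of 0.0941, 8 of 41 members passed, beside 8.15% of all genes in either direction. All 8 were lower in Dp1Tyb, with adjusted P from 0.00611 to 0.0437: Myl2, Tpm1, Tnnt2, Tnni3, Tnnc1, Nebl, Tcap and Myoz2. Without heart 2 alone no member passed, and 38 of the 41 were below 0. The markers of other cells differed in the same comparison, though no marker passed the threshold: the 12 cardiomyocyte markers had a median log2 fold change of -0.12, with 3 lower and 1 higher at an unadjusted P under 0.05, and the 8 fibroblast and mesenchyme markers had a median of 0.14, with 2 higher. The mean deviation of the fibroblast markers from all hearts ran from -0.05 to 0.14 in Dp1Tyb and from -0.24 to 0.16 in hearts labelled Dp1TybDyrk1a+/+/-. Of the other lists, the erythroid markers had a median of 0.15, the lung markers 0.12 and the liver markers 0.07. The remaining lists lay between -0.03 and 0.03. The part of cell types in the lower values of the members was not tested.

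**Figure D3:**
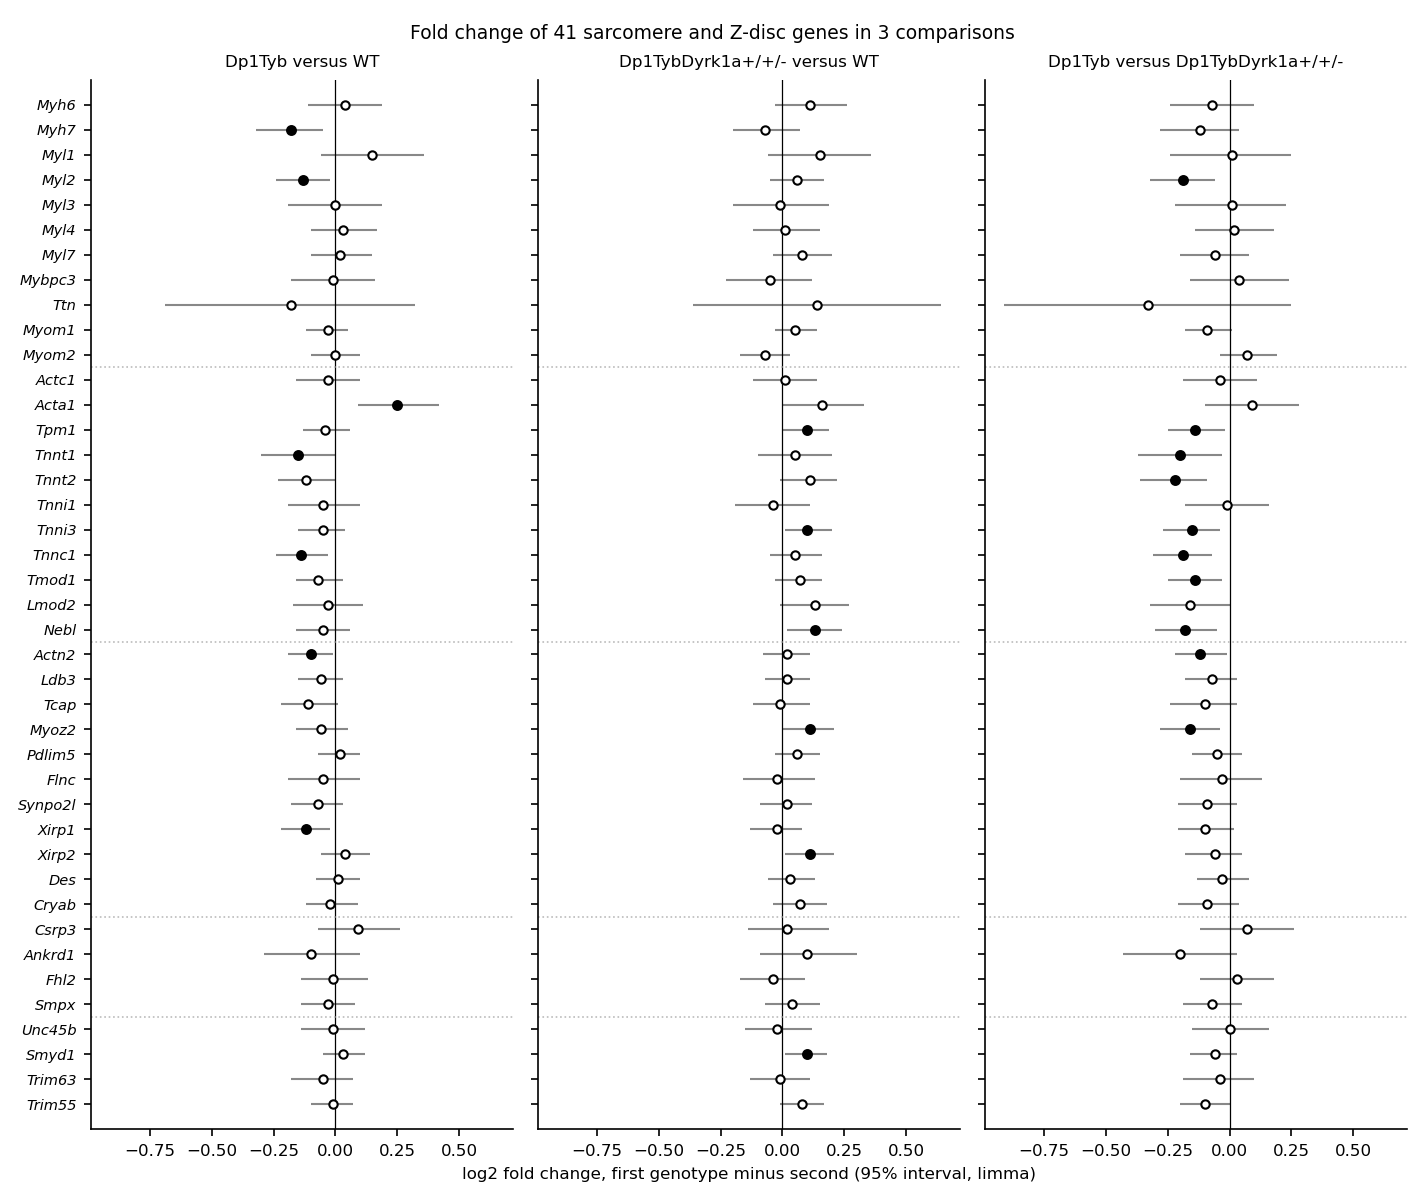
Log2 fold change (limma, first genotype minus second) of each member with its 95% interval in the 3 comparisons. Filled circles have an unadjusted P under 0.05 and none of the 41 members passes the adjusted threshold. Dotted lines part the role groups. In the right-hand panel the intervals of 7 of 11 thin filament genes lie left of 0.

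**Figure D4:**
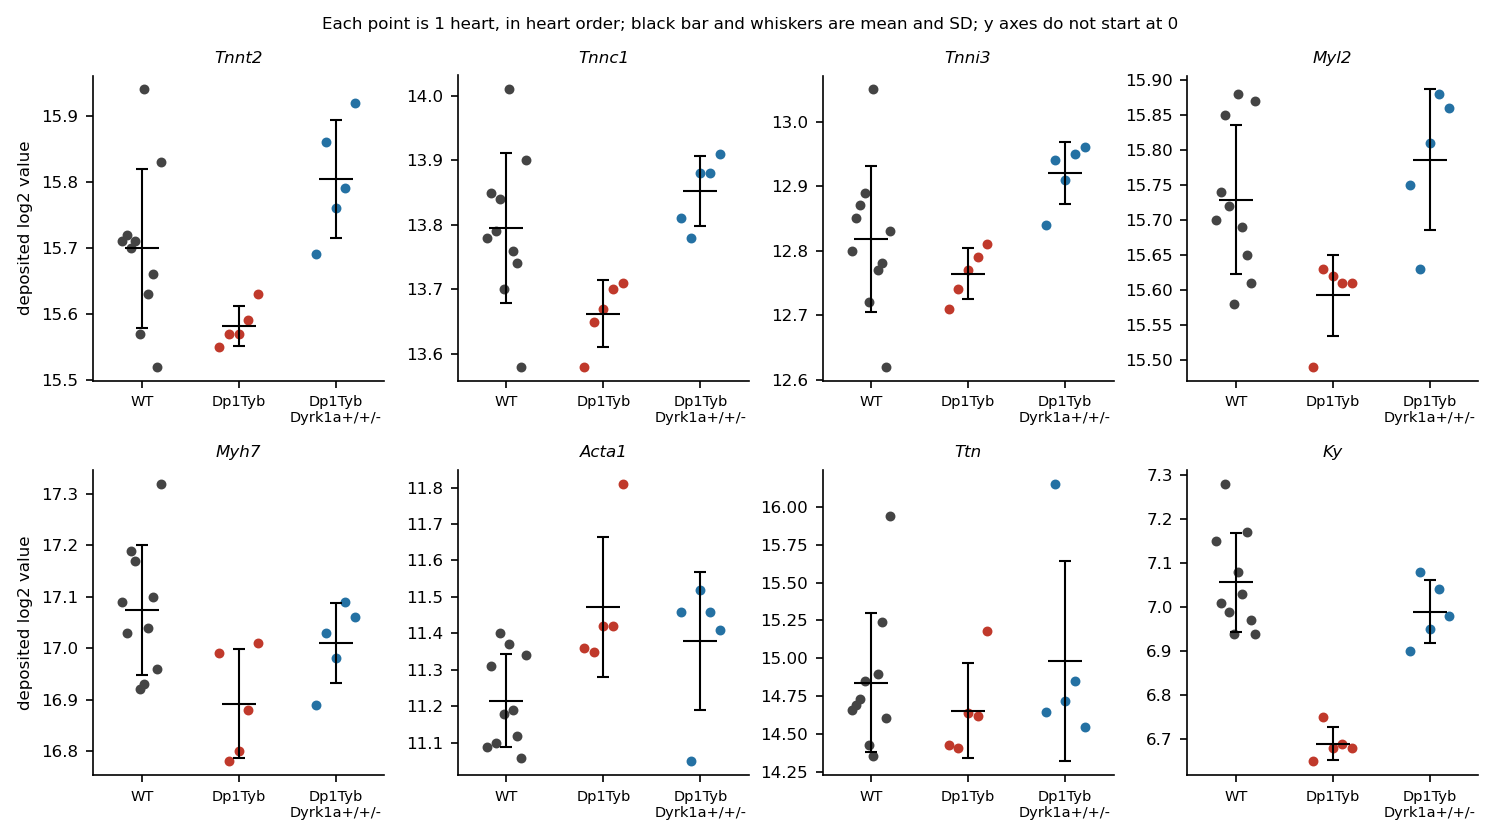
Deposited log2 value of 7 members and of Ky in every heart, by genotype, with mean and SD. The Dp1Tyb hearts and those labelled Dp1TybDyrk1a+/+/- are apart in Tnnt2, Tnnc1, Tnni3 and Myl2, the WT hearts cover both in Tnnt2 and Tnni3, and all 5 Dp1Tyb hearts lie below all others in Ky.

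Isoform partners were compared within each heart, which removes what both genes of a pair share but not a difference in atrial and ventricular content. In Dp1Tyb against WT the atrial markers had a median of 0.04 and the ventricular markers one of -0.04, with none called. In WT heart 3 they were at -0.18 and 0.09, relative to all hearts. The part of chamber content in the pairs was not tested. Myh6, the fast or alpha heavy chain, was below Myh7 in every heart. The log2 difference Myh6 minus Myh7 was -1.25 ± 0.16 (SD, n = 10) in WT, from -1.65 in WT heart 3 to -1.10 in WT heart 7. In Dp1Tyb hearts 1 to 5 it was -1.0, -1.05, -1.09, -1.04 and -0.97, all above the WT range by a narrow margin. In hearts labelled Dp1TybDyrk1a+/+/- it was -1.05, -0.99, -1.06, -1.17 and -1.10, with hearts 1, 2 and 3 above the WT range. Myh6 itself was at 15.82 ± 0.15 in WT (SD, n = 10), 15.86 ± 0.15 in Dp1Tyb and 15.94 ± 0.07 in the hearts labelled Dp1TybDyrk1a+/+/- (SD, n = 5 each). The transcripts of Myh6 and Myh7 are 91.8% identical over 5810 aligned bases and share an antisense gene, Mhrt, so the split of reads between them is uncertain. The difference Actc1 minus Acta1 was 5.68 ± 0.07 (SD, n = 10) in WT, between 5.58 and 5.78. In Dp1Tyb hearts it was 5.46, 5.49, 5.39, 5.47 and 5.16, all below the WT range, and in hearts labelled Dp1TybDyrk1a+/+/- it was 5.45, 5.66, 5.46, 5.52 and 5.52, of which heart 2 lay inside it. Actc1 itself was at -0.03 ± 0.06 (SE) in Dp1Tyb against WT, with 16.89 ± 0.11 in WT (SD, n = 10) and 16.86 ± 0.07 in Dp1Tyb (SD, n = 5). The Actc1 and Acta1 transcripts are 86.3% identical over 1132 bases. No test was run on these differences, which are descriptions over a few hearts. How often other pairs of genes separate the hearts in this way was not measured.

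In the other 4 pairs all genotypes overlapped. Myl2 minus Myl7, a ventricular against an atrial light chain, was 1.92 ± 0.16 in WT (SD, n = 10), 1.77 ± 0.07 in Dp1Tyb and 1.90 ± 0.05 in hearts labelled Dp1TybDyrk1a+/+/- (SD, n = 5 each). The Dp1Tyb hearts ran from 1.67 to 1.85 and all lay below the WT median of 1.86. Myl7 was at 13.80, 13.83 and 13.88 on average in the 3 genotypes. Myl3 minus Myl4 was -0.32, -0.35 and -0.34 on average in the 3 genotypes, where Myl3 was at 14.09, 14.09 and 14.08 and Myl4 at 14.41, 14.44 and 14.42. Tnnt1 minus Tnnt2 was -3.54, -3.57 and -3.59. Tnni1 minus Tnni3, the fetal against the adult inhibitory troponin, was 1.16 ± 0.12 in WT, 1.16 ± 0.02 in Dp1Tyb and 1.02 ± 0.25 in hearts labelled Dp1TybDyrk1a+/+/-, where heart 2 stood at 0.57 and the other 4 between 1.09 and 1.18. WT heart 6, at 0.82, was the lowest WT heart. Tnni1 was at 13.98 in WT, 13.93 in Dp1Tyb and 13.94 in the hearts labelled Dp1TybDyrk1a+/+/-.

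**Figure D5:**
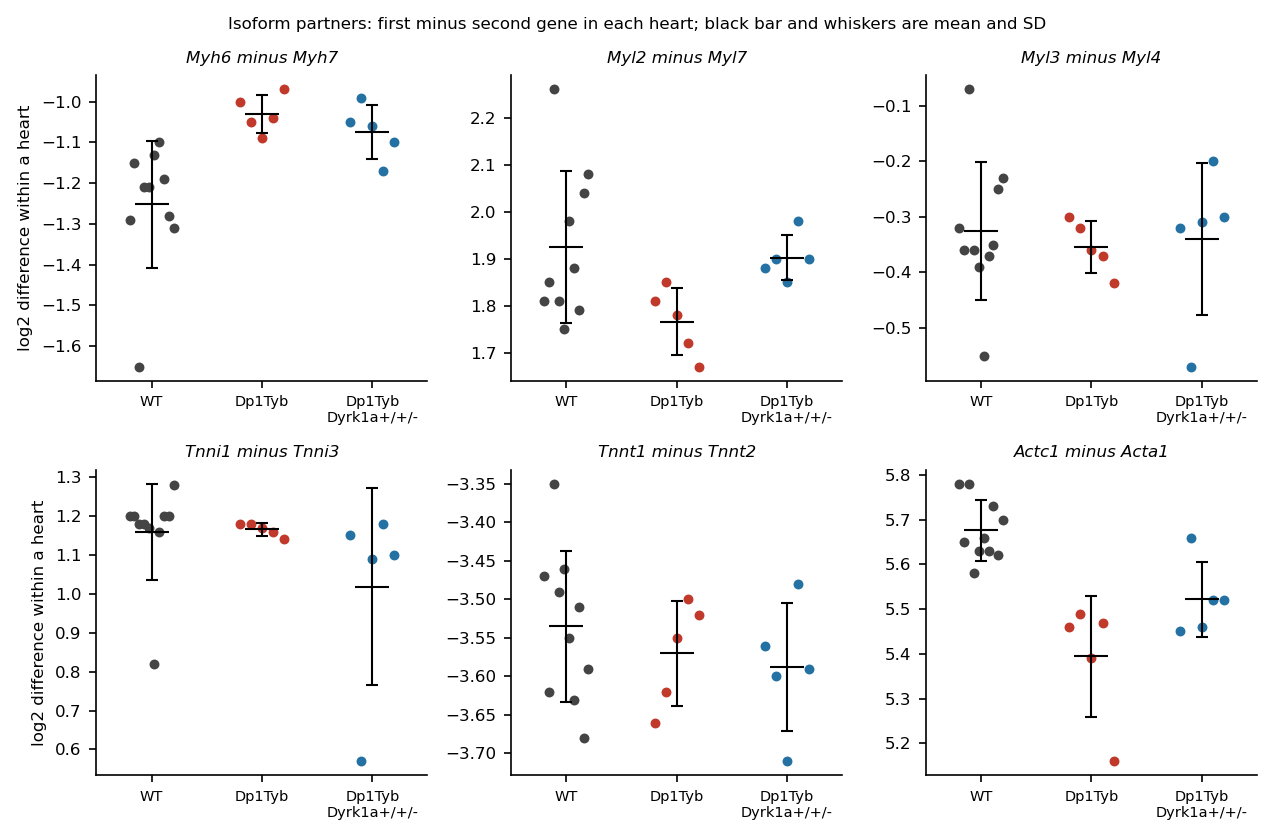
Log2 difference between isoform partners within each heart, first gene minus second, by genotype, with mean and SD. Myh6 minus Myh7 lies higher and Actc1 minus Acta1 lower in all 5 Dp1Tyb hearts than in all 10 WT hearts, and the other pairs overlap.

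Ttn was the member in which hearts differed most. Its log2 value in WT hearts 1 to 10 had a lowest value of 14.36, a median of 14.71 and a highest of 15.94, the last in WT heart 10. In Dp1Tyb it was 14.43, 14.41, 14.64, 14.62 and 15.18, and in hearts labelled Dp1TybDyrk1a+/+/- it was 14.65, 16.15, 14.72, 14.85 and 14.55. The high hearts came from all 3 genotypes: WT hearts 8 and 10, Dp1Tyb heart 5 and heart 2 labelled Dp1TybDyrk1a+/+/-. All of these were sequenced in lane 7 except Dp1Tyb heart 5, which was in lane 3. Lane 7 also held hearts that were not high: Dp1Tyb heart 1 (14.43) and hearts 3 and 4 labelled Dp1TybDyrk1a+/+/- (14.72 and 14.85). Within lanes 3, 6 and 7, Dp1Tyb minus WT was 0.03, 0.09 and -1.16, with 1 Dp1Tyb heart and 2 WT hearts in lane 7. The part of the lane was not tested. The log2 fold change was -0.18 ± 0.24 in Dp1Tyb and 0.14 ± 0.24 in Dp1TybDyrk1a+/+/- against WT, with intervals from -0.69 to 0.32 and from -0.36 to 0.64, so changes of this size were not detectable. Without heart 2 labelled Dp1TybDyrk1a+/+/- the latter value was -0.15, and Dp1Tyb against Dp1TybDyrk1a+/+/- went from -0.33 to -0.03. In heart 2 labelled Dp1TybDyrk1a+/+/-, Ttn was 1.31 above the WT mean while Myl3 was at -0.58, Mybpc3 at -0.54, Tnni1 and Csrp3 at -0.47, Unc45b at -0.40, Fhl2 at -0.37, Trim63 at -0.36 and Myl4 at -0.34. Over the 41 members the Spearman correlation of that heart's deviation from the other hearts was 0.34 with transcript length, within the range of the other 19 hearts (-0.60 to 0.53), and -0.43 with GC content, below their range (-0.31 to 0.32). Over 15167 genes it was 0.24 with length, above the others (-0.21 to 0.18), and -0.29 with GC content, as in hearts 3 and 5 of the same label. These correlations are across genes, which are not independent, and the part of length or GC content in the values was not tested.

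Ky, Nrap, Mybphl and Tnni2, sarcomere genes that are no members, differed between genotypes past the adjusted threshold. Of 76 further sarcomere genes 65 were expressed enough to test. In Dp1Tyb against WT 3 of the 65 passed the adjusted threshold, beside 3.08% of all genes tested. In Dp1TybDyrk1a+/+/- against WT 1 of the 65 passed, beside 0.712% of all genes. In Dp1Tyb against Dp1TybDyrk1a+/+/- 1 of the 65 passed, beside 1.16%. With so few genes, these counts are close to the shares of all genes. Ky encodes kyphoscoliosis peptidase, a muscle protein of the Z-disc region. Its log2 value was 6.94 at the lowest, 7.02 at the median and 7.28 at the highest in WT. In Dp1Tyb hearts it was 6.65, 6.75, 6.68, 6.69 and 6.68, and in hearts labelled Dp1TybDyrk1a+/+/- it was 6.90, 7.08, 6.95, 7.04 and 6.98. Every Dp1Tyb heart lay below every heart of the other 2 genotypes. The log2 fold change was -0.37 ± 0.05 against WT (SE; adjusted P=3.69e-05) and -0.30 ± 0.05 against Dp1TybDyrk1a+/+/- (adjusted P=0.013), while Dp1TybDyrk1a+/+/- against WT was at -0.06 ± 0.05 (adjusted P=0.678).

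Nrap, which serves as a scaffold for the assembly of myofibrils, fell by 0.22 on the log2 scale in Dp1Tyb against WT (SE 0.05, adjusted P=0.0125), from 11.54 ± 0.11 (SD, n = 10) to 11.32 ± 0.07 (SD, n = 5). In hearts labelled Dp1TybDyrk1a+/+/- it was 11.51 ± 0.08, and Dp1Tyb against these was at -0.19 ± 0.06 (adjusted P=0.0887). Mybphl, a myosin-binding protein of atrial muscle, rose in Dp1Tyb by 0.27 ± 0.06 (adjusted P=0.0128), and its 5 values from 8.79 to 8.87 all lay above the WT range of 8.26 to 8.73. It was at 0.24 ± 0.06 in Dp1TybDyrk1a+/+/- against WT, where the adjusted P was 0.0759 although the hearts did not overlap. Tnni2, the fast skeletal inhibitory troponin, rose by 0.25 ± 0.05 in Dp1TybDyrk1a+/+/- against WT (adjusted P=0.021), with values of 8.13 to 8.28 against 7.82 to 8.18, and lost the call when heart 3, 4 or 5 of that genotype was left out (adjusted P=0.0661, 0.0861 and 0.0913). Nrap lost its call without Dp1Tyb heart 4 (adjusted P=0.0544).

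None of 14 regulators of contractile genes passed the threshold in any comparison by limma. The list held serum response factor and its coactivators, the MEF2, GATA, T-box and NKX factors of cardiac muscle and the splicing factors Rbm20 and Rbm24, which act on Ttn and other sarcomere transcripts. In Dp1Tyb against Dp1TybDyrk1a+/+/-, 12 of 14 were below 0 with a median of -0.08, and 5 of them had an unadjusted P under 0.05. In Dp1Tyb against WT, 10 of 14 were below 0 with a median of -0.03, and 2 were lower at the unadjusted level. The shares over all genes were 51.5% and 7.80%. In Dp1TybDyrk1a+/+/- against WT 12 of 14 were above 0 with a median of 0.04, and 1 was higher at the unadjusted level. There the shares over all genes were 47.4% and 5.02%. The counts of 2 and 1 at the unadjusted level are near the shares of all genes. The lowest adjusted P were 0.131, 0.154 and 0.153, for Mef2c, Rbm20 and Mef2c.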

How the data were processed

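The authors deposited 1 table of log2 normalized counts, with 1 column for each of 20 hearts and values from -2.31 to 18.97. The submitters' processing notes name Trimmomatic 0.36, STAR 2.5.2a, RSEM 1.2.31, DESeq2 and the GRCm38 build. The libraries were normalized for size before deposit. The kind of log transformation and the strand setting are not given in the sources used here. The spread between hearts was smaller in weakly expressed genes, so fold changes of such genes may be understated. Read totals were not analysed here, so depth is unknown and precision rests on the spread between hearts.

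Gene names were taken from GENCODE M39 for 44565 of 48795 genes. Genes with a mean normalized count (2 to the deposited value) of at least 10, 15304 in all, entered a linear model of all 20 hearts with 1 mean for each genotype (limma 3.58.1, R 4.3.3, eBayes with trend). P-values were adjusted over all genes tested (Benjamini-Hochberg, threshold 0.05). The fit was tested on simulated data with independent noise in each gene and known shifts. Those data held no variation shared by whole hearts and no heart that stood apart, so the test does not cover these features. The members, gene lists and tests were chosen with earlier results of these data known. Full values were given for the member with the smallest unadjusted P in each role group, for isoform partners and for genes of other lists past the threshold. Further members, Ttn among them, were named after their values were seen. Levels were divided by the length of the GENCODE M39 canonical transcript, and transcripts were aligned with BLAST+ 2.17.0. Of the 41 members 26 overlap a gene on the opposite strand in that annotation. The labels give no litters, and hearts were sequenced in lanes 3, 6 and 7. In that order the lanes held 4, 4 and 2 WT hearts and 2, 2 and 1 Dp1Tyb hearts. They held 1, 1 and 3 hearts labelled Dp1TybDyrk1a+/+/-, so genotypes were not balanced over lanes. The alternatives were 3 other filters, another log offset, median centring, quantile normalization, eBayes without trend or robust, heart weights, a lane term, a fit of the compared genotypes alone, and each heart left out.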

Additional observations from a re-analysis of the deposited data

Results flagged for a closer look

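In each genotype the highest and lowest heart of each member were compared with the nearest heart by Dixon's ratio, in 123 groups of hearts. Chance alone marks about 1 in 20 such groups, and 15 values stood apart, of which 12 belonged to heart 2 labelled Dp1TybDyrk1a+/+/-. Each value below is the gap on the log2 scale to the nearest heart of the same genotype. In that heart the lowest values stood apart for Myl3 (0.65), Myl4 (0.40), Mybpc3 (0.54), Actc1 (0.19), Acta1 (0.36), Tnni1 (0.48), Csrp3 (0.55), Fhl2 (0.35), Unc45b (0.45) and Trim63 (0.37). The highest stood apart there for Ttn (1.30) and Cryab (0.17). In Dp1Tyb hearts, Myl2 was lowest in heart 1 by a gap of 0.11 and Acta1 was highest in heart 5 by a gap of 0.39. Myom2 was highest in heart 5 labelled Dp1TybDyrk1a+/+/- by a gap of 0.27. The causes were not tested.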

How the results depend on the processing

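The count of members past the threshold was 0 in each comparison and stayed 0 under the other filters (a minimum of 100 left 40 members), the other log offset, median centring, quantile normalization, eBayes without trend or robust, the lane term and the fit of the compared genotypes alone. Hearts weighted by quality gave 3, 1 and 8 members in Dp1Tyb against WT, Dp1TybDyrk1a+/+/- against WT and Dp1Tyb against Dp1TybDyrk1a+/+/-. Leaving out WT heart 6 and Dp1TybDyrk1a+/+/- heart 2 together, chosen after seeing the data, gave 1, 0 and 3 members. When single hearts were left out, the counts were 0 to 1, the 1 being Tnnc1 without WT heart 9, in Dp1Tyb against WT and 0 in the other comparisons. The median log2 fold change of the members kept its sign in every alternative. Its ranges were -0.052 to -0.008, 0.025 to 0.091 and -0.103 to -0.029 in the same order. Quantile normalization brought it nearest to 0, at -0.008, 0.025 and -0.029, from -0.033, 0.054 and -0.075 in the main fit. Each shift was below the SD of the members' median between hearts (0.0719). That SD is about as large as these medians or larger, so it is a weak measure of stability. Over all genes the calls in Dp1Tyb against Dp1TybDyrk1a+/+/- went from 178 to 3 when only these 10 hearts were fitted, to 29 with the lane term and to 1247 with heart weights. Ky and Mybphl kept their calls under every alternative. Members with an unadjusted P under 0.05, and called genes of the other lists, kept their sign in that comparison throughout. Other members did not, such as Ttn, Myl3, Myl4 and Mybpc3 without heart 2 labelled Dp1TybDyrk1a+/+/-. No member passed the threshold, so within-lane values are given for members named without a call. No paired analysis was possible because the labels give no litters or shared replicate numbers. Depth is unknown, and with 5 hearts against 5 the SE of a member's log2 fold change was between 0.05 and 0.28.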
